A study of Homo sapiens with 9 samples.

Results

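The kinesin family genes measured here are the 38 genes, of 19775 in all, whose symbol is KIF followed by digits and an optional letter, antisense genes left out. They were sorted by known function into 12 mitotic kinesins, 13 cargo-transport kinesins and 13 others. Transcript levels came from 9 Affymetrix arrays of U87 cells, an established human glioma line, all transfected by Lipofectamine RNAiMAX with 50 nM of an RNA duplex and kept for 72 h. The duplex was miR-376a*A on 3 arrays, miR-376a*G on 3 and a control on 3; the A and G duplexes stand for the unedited and the edited form of 1 microRNA. All 3 groups were transfected and come from 1 line, with no untransfected cells among them. The labels call the replicates biological without naming separate cultures, so the p-values measure the spread between these arrays, which may be partly technical.

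Kinesins are motor proteins that turn ATP hydrolysis into movement along microtubules or into the shortening of microtubule ends. The mitotic kinesins build the spindle, move chromosomes and complete cytokinesis, and their transcripts are known to accumulate in the G2 and M phases of the cell cycle. The cargo-transport kinesins carry organelles, vesicles and ciliary components outward along microtubules in cells at all stages, and dynein carries cargo the opposite way.

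The microRNA is shown because the groups differ by the duplex. The unedited strand is listed by RefSeq as hsa-miR-376a-5p at chr14:101040788-101040809, plus strand of GRCh38.p14. Bases 2 to 8, the seed that sets target choice, are in capitals. Editing changes adenosine to inosine, which pairs like guanosine.
hsa-miR-376a-5p: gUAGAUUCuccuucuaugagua

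Promoter stretches are shown for 5 mitotic kinesins that moved together, for 1 mitotic kinesin with no matching motif and for 1 cargo-transport kinesin. Each runs from 80 bases before to 40 bases of transcript at the start site in RefSeq GRCh38.p14. Capitals mark 3 kinds of motif, searched on both strands. The first is the core of the cell cycle genes homology region (TTTGAA or TTCGAA), through which many G2 and M phase genes are known to be repressed until late in the cycle. The second is the CCAAT box (CCAAT), bound by NF-Y. The third is an E2F-type site (TTTGGCGC, TTTCGCGC or TTTCCCGC). A match on the opposite strand appears as its reverse complement. In KIF15 an E2F-type match and a homology region match lie side by side and form 1 run of capitals. The KIF1B stretch has no capitals, but CCAAT boxes lie upstream of it, beginning 157 and 126 bases before the same start site.
KIF11 (chr10:92593050-92593169, plus strand): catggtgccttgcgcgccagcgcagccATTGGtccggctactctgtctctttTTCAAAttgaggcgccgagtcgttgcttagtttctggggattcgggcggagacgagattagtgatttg
KIF15 (chr3:44761714-44761833, plus strand): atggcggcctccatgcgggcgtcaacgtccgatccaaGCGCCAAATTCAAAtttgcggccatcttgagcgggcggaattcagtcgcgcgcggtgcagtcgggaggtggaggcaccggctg
KIF18A (chr11:28108117-28108236, minus strand): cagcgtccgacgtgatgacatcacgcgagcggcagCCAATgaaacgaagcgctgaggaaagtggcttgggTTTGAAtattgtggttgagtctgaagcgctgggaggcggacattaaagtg
KIF4A (chrX:70290024-70290143, plus strand): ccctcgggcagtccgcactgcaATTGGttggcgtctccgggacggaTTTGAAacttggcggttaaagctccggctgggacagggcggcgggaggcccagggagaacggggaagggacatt
KIF23 (chr15:69414269-69414388, plus strand): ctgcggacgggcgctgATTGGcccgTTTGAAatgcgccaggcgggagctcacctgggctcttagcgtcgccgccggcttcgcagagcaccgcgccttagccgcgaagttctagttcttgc
KIF2C (chr1:44739757-44739876, plus strand): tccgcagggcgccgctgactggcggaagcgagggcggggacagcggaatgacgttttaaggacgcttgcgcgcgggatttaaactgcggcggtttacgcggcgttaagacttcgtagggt
KIF1B (chr1:10210490-10210609, plus strand): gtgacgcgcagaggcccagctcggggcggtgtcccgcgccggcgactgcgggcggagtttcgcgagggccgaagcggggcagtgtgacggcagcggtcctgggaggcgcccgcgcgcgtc

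The homology region core was present in the 300-base windows (250 before to 50 after the start) of 9 of 12 mitotic kinesin genes. It was present in 1 of 11 cargo-transport genes with a window (KIF5B), in 1 of 9 other kinesin genes (KIF24) and in 16.4% of all 35116 windows. In each of the 9 mitotic genes a match began between position -55 and position 31, counting the start site as 1. KIF2B, KIF2C and KIF20A were the mitotic genes without it. The CCAAT box was present in 9 of 12 mitotic genes, 4 of 11 cargo-transport genes, 3 of 9 others and 34.6% of all windows. The cargo-transport genes with it were KIF1B, KIF3B, KIF5B and KIF5C. The E2F-type letters occurred in KIF15 alone among the mitotic genes, in 0 of 11 cargo-transport genes, in 1 of 9 others (KIF25) and in 2.74% of all windows. The percentages are shares of windows, while a gene was counted when any of its windows matched. By window, the homology region core was in 10 of 13 mitotic, 1 of 16 cargo-transport and 1 of 12 other windows. The CCAAT box was in 9 of 13, 5 of 16 and 4 of 12. These counts describe letters in 1 window per start site. Genes with several start sites had several windows, and a match is not a measured binding site.

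Array quality bears on every result below. Signal is in scaled intensity units, and the median signal of an array lay between 18.0 and 24.6. Pearson correlations over the 12587 tested genes set 2 arrays apart from their groups. Those of miR-376a*A replicate 1 were 0.925 and 0.934 with its own group and 0.987 and 0.990 with control replicates 2 and 3. Those of control replicate 1 were 0.935 and 0.934 with its own group and 0.990 and 0.982 with miR-376a*A replicates 2 and 3. Both arrays, called the displaced arrays below, went against their labels in this respect, so each comparison is given with all arrays and again without these 2. The second set was chosen after their values were seen, so its p-values are not independent of that choice. Of 5 markers of a mesenchymal glioma line, all 5 were above the low-value filter; of 5 astrocyte markers 2 were, with GFAP, S100B and AQP4 below it; of 5 neuron markers 4 were, with RBFOX3 below it. Between miR-376a*G and control, 2 mesenchymal markers fell and 0 rose, and 2 neuron markers fell and 1 rose. Of all tested genes 15.4% fell and 18.0% rose. The summed signal of the mesenchymal markers was 9348 to 12741 on the miR-376a*A arrays, 6712 to 7194 on the miR-376a*G arrays and 8397 to 10732 on the control arrays. That of the neuron markers was 2452 to 3896 on the miR-376a*A arrays, 2149 to 2346 on the miR-376a*G arrays and 2289 to 3427 on the control arrays. The part of these markers in the kinesin results was not tested.

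Only genes brighter than the median of the array on 3 or more of the 9 arrays were tested. The filter kept 28 of the 38 kinesins, namely 11 mitotic (all but KIF2B), 11 cargo-transport (all but KIF1A and KIF17) and 6 others. The 10 kinesins under the filter had signals between 0.216 and 30.9. All differences below are in log2(signal + 1), with a standard error and an adjusted p from limma over all 12587 genes unless another fit is named.

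The mitotic kinesins were higher after miR-376a*G than after the control duplex. The comparison asks whether the edited form changed their levels. Of the 11 tested, 10 rose and 0 fell, while 18.0% of all tested genes rose and 15.4% fell. Every miR-376a*G array exceeded every control array for all 11. The share of all tested genes that separated in this way was not counted, so the separation of all 11 cannot be weighed against it. Of all 12587 tested genes, 5541 had an unadjusted p under 0.05 by limma. The median difference over the 11 was 1.47, against 0.12 over all tested genes. KIF23, KIF11 and KIF2C had the 3 largest differences.

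**Figure D1:**
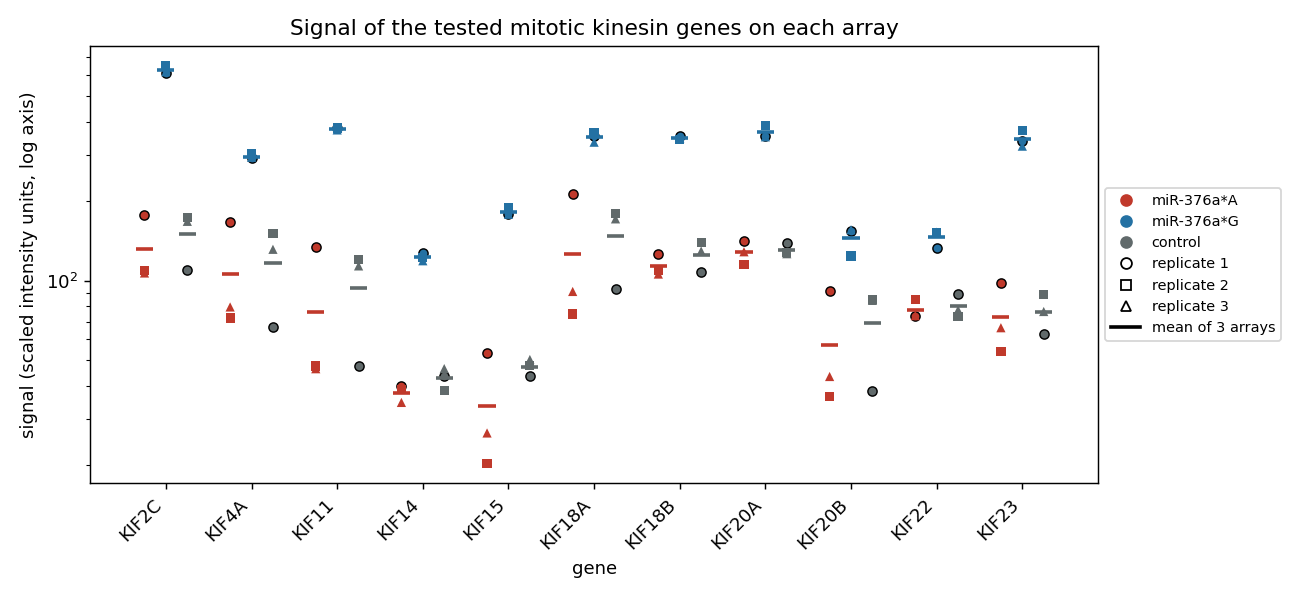
Signal (scaled intensity units, log axis) of the 11 tested mitotic kinesin genes on each array, by group; points are arrays, marker shape gives the replicate number and short lines are the means of 3 arrays. For every gene the 3 miR-376a*G points lie above all other points, and replicate 1 of miR-376a*A and of control often lies apart from its own group.

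The motors that separate the spindle poles were KIF11 and KIF15. KIF11, also called Eg5, slides antiparallel microtubules apart to make the spindle bipolar. For KIF11, signal was 134, 47.5 and 46.4 on the miR-376a*A arrays, 379, 379 and 372 on the miR-376a*G arrays and 47.5, 119.9 and 114 on the control arrays. The miR-376a*G arrays lay close together, while miR-376a*A replicate 1 stood above its group and control replicate 1 below its own. KIF11 was higher in miR-376a*G by 2.11 ± 0.45 (SE, adjusted p = 0.00679). KIF15 helps hold the spindle bipolar when KIF11 is impaired, and its signal was 53.4, 20.4 and 26.5 on the miR-376a*A arrays, 179, 189 and 178 on the miR-376a*G arrays and 43.8, 47.7 and 50.3 on the control arrays. The miR-376a*G arrays did not overlap the others, and the difference from control was 1.93 ± 0.30 (SE, adjusted p = 0.00125).

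The motors that shorten microtubule ends were KIF2C, KIF18A and KIF18B. KIF2C, or MCAK, works at centromeres, where it releases wrongly attached microtubules. For KIF2C, signal was 178, 109 and 107 on the miR-376a*A arrays, 612, 651 and 618 on the miR-376a*G arrays and 109.6, 173 and 168 on the control arrays. All miR-376a*G arrays lay far above the other 6; the difference from control was 2.08 ± 0.23 (SE, adjusted p = 0.000239). KIF18A, which limits the oscillation of chromosomes at the metaphase plate, had signals of 212, 74.8 and 91.1 on the miR-376a*A arrays, 352, 362 and 334 on the miR-376a*G arrays and 92.7, 179 and 171 on the control arrays. Here miR-376a*A replicate 1 was the highest array outside miR-376a*G, and the difference of miR-376a*G from control was 1.30 ± 0.38 (SE, adjusted p = 0.0280). KIF18B, which acts on astral microtubules, had 126, 109 and 106 on the miR-376a*A arrays, 354, 342 and 347 on the miR-376a*G arrays and 108, 139 and 129.5 on the control arrays. Its spread within groups was small, and it rose by 1.47 ± 0.13 (SE, adjusted p = 7.76e-05).

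KIF4A and KIF22 bind chromosomes and push their arms toward the spindle equator. KIF4A also works with PRC1 at the central spindle. For KIF4A, signal was 167, 72.3 and 79.6 on the miR-376a*A arrays, 290.4, 302 and 293 on the miR-376a*G arrays and 66.8, 151 and 131 on the control arrays. It rose in miR-376a*G by 1.42 ± 0.36 (SE, adjusted p = 0.0157); the near-identical copy KIF4B could share its probes. KIF22 had signals of 73.4, 84.9 and 73.8 on the miR-376a*A arrays, 134, 152 and 153 on the miR-376a*G arrays and 88.9, 73.4 and 77.5 on the control arrays. Its rise of 0.86 ± 0.13 (SE, adjusted p = 0.00136) was the smallest called among the 11, and its miR-376a*G arrays lay above all others.

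The kinesins of cytokinesis were KIF14, KIF20A, KIF20B and KIF23. KIF23, or MKLP1, forms the centralspindlin complex with RACGAP1, and its signal was 97.8, 54.1 and 66.4 on the miR-376a*A arrays, 338, 372 and 323 on the miR-376a*G arrays and 62.9, 88.8 and 76.5 on the control arrays. It rose in miR-376a*G by 2.18 ± 0.22 (SE, adjusted p = 0.000138), the largest difference of any kinesin. KIF20A, or MKLP2, brings the chromosomal passenger complex to the central spindle. For KIF20A, signal was 142, 116 and 129 on the miR-376a*A arrays, 354, 387 and 351 on the miR-376a*G arrays and 139, 128 and 127 on the control arrays. It was level between the other groups and rose in miR-376a*G by 1.46 ± 0.12 (SE, adjusted p = 4.74e-05). KIF14, which recruits citron kinase to the midbody, had 39.8, 38.7 and 34.6 on the miR-376a*A arrays, 127, 122 and 119 on the miR-376a*G arrays and 43.5, 38.4 and 46.5 on the control arrays. Its rise in miR-376a*G was 1.50 ± 0.14 (SE, adjusted p = 8.24e-05). KIF20B, the remaining cytokinesis kinesin, had 91.5, 36.4 and 43.4 on the miR-376a*A arrays, 155, 124 and 156 on the miR-376a*G arrays and 38.1, 85.0 and 84.3 on the control arrays. Its difference of 1.14 ± 0.39 (SE, adjusted p = 0.0513) missed the threshold, although its miR-376a*G arrays lay above all others.

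Without miR-376a*A replicate 1 and control replicate 1, all 11 tested mitotic kinesins were called higher in miR-376a*G, 31.2% of all tested genes being higher and 25.0% lower. The median over the 11 was then 1.51. KIF2C, KIF11, KIF14, KIF15, KIF18B, KIF20A, KIF22 and KIF23 kept their call under every alternative run. KIF18A lost it when any 1 of the miR-376a*G arrays or control replicate 1 was left out (adjusted p = 0.067 to 0.0801). KIF4A lost it without miR-376a*G replicate 2 (adjusted p = 0.051), and KIF4A and KIF18A lost it when arrays were centred on their medians (adjusted p = 0.0628 and 0.101).

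A pair of further mitotic motors falls outside the symbol rule. CENPE, which carries chromosomes along kinetochore fibres, had 222, 84.1 and 87.2 on the miR-376a*A arrays, 522, 560.2 and 519.9 on the miR-376a*G arrays and 92.4, 176 and 194 on the control arrays, and was higher in miR-376a*G than in control by 1.86 ± 0.39 (SE, adjusted p = 0.00616). KIFC1, a minus-end motor that focuses spindle poles, had 75.8, 6.27 and 8.89 on the miR-376a*A arrays, 110.3, 114 and 115 on the miR-376a*G arrays and 10.8, 38.9 and 35.6 on the control arrays. Its difference of 2.14 ± 0.82 (SE, adjusted p = 0.0735) did not pass the test. KIFC2 and KIFC3, the other C-terminal kinesins, differed by -0.02 and 0.33 and were not called.

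Genes whose products work with the mitotic kinesins were also higher. Of 14 tested partners and regulators, 11 rose in miR-376a*G against control and 0 fell, beside 18.0% and 15.4% of all tested genes, with a median difference of 1.43. PLK1, a mitotic kinase that acts on KIF20A and KIF2C among others, had 72.2, 63.5 and 62.7 on the miR-376a*A arrays, 384, 396 and 458 on the miR-376a*G arrays and 69.8, 74.7 and 59.4 on the control arrays, and its difference from control was 2.59 ± 0.14 (SE, adjusted p = 1.01e-05). BIRC5 and CDCA8, subunits of the chromosomal passenger complex, rose by 1.88 and 1.84 (adjusted p = 1.88e-05 and 0.000127). PRC1, which bundles the central spindle, rose by 1.85 (adjusted p = 0.00012). Markers of proliferating cells moved the same way: 5 of 5 rose, and their summed signal was 1451 to 1508 on the miR-376a*A arrays, 4125 to 4415 on the miR-376a*G arrays and 1331 to 1360 on the control arrays. Their part in the kinesin result was not tested. In RNA from a whole culture, more cells in G2 and M phase and more transcript per cell cannot be told apart.

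The cargo-transport kinesins did not rise after miR-376a*G. Of the 11 tested, 0 rose and 3 fell against control, namely KIF1B, KIF13A and KIF13B, with background shares of 18.0% higher and 15.4% lower. The median difference was -0.39, against 0.12 for all tested genes and 1.47 for the mitotic kinesins. On 7 of the 11 the miR-376a*G arrays lay below every control array, and on 0 of the 11 above. The matching shares over all tested genes were not counted, so the 7 of 11 cannot be weighed as a trait of the class. Of all 12587 tested genes, 5541 had an unadjusted p under 0.05 by limma in this comparison.

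**Figure D2:**
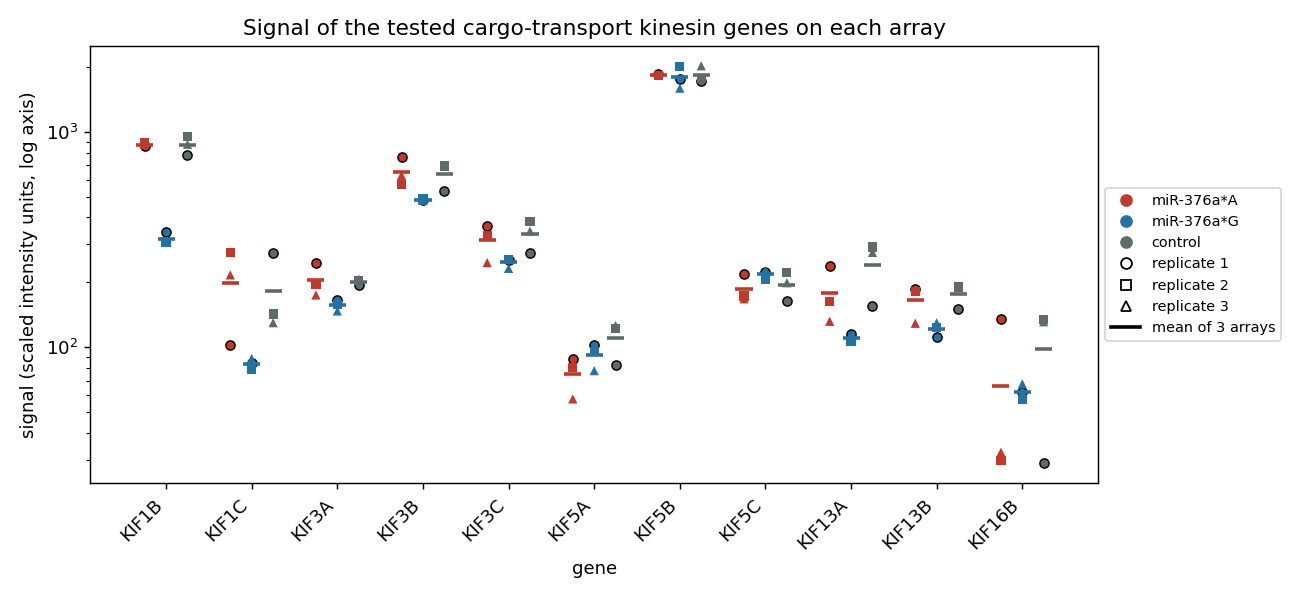
Signal (scaled intensity units, log axis) of the 11 tested cargo-transport kinesin genes on each array, by group, drawn as in the plot of mitotic kinesins. KIF1B is low on the 3 miR-376a*G arrays, KIF5B is level across all 9 arrays, and KIF1C and KIF16B differ most between replicates of a group.

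KIF1B, which carries mitochondria and synaptic vesicle precursors, showed the largest fall. For KIF1B, signal was 857, 887 and 874 on the miR-376a*A arrays, 341, 308 and 306 on the miR-376a*G arrays and 777, 950.4 and 875 on the control arrays. All miR-376a*G arrays lay far below the other 6, and the difference from control was -1.44 ± 0.10 (SE, adjusted p = 2.16e-05). KIF1B kept this call under every alternative run, and its 3 tested probe sets all fell. Its relative KIF1C, a fast vesicle motor, had 102, 274 and 216 on the miR-376a*A arrays, 84.1, 78.7 and 88.7 on the miR-376a*G arrays and 274, 142 and 129.9 on the control arrays. The spread within the miR-376a*A and control groups was wide, and the difference of miR-376a*G from control was -1.03 ± 0.38 (SE, adjusted p = 0.0653), which did not pass.

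KIF13A, KIF13B and KIF16B move endosomes and membrane cargo. KIF13A had 238, 163 and 132 on the miR-376a*A arrays, 115, 106 and 110.0 on the miR-376a*G arrays and 155, 292 and 275 on the control arrays, and fell in miR-376a*G by 1.06 ± 0.27 (SE, adjusted p = 0.0163). KIF13B had 186, 182 and 129 on the miR-376a*A arrays, 112, 123 and 129.8 on the miR-376a*G arrays and 149.9, 190.2 and 189 on the control arrays, and its difference from control was -0.53 ± 0.17 (SE, adjusted p = 0.0443). The KIF13A call was lost without replicate 2 or 3 of miR-376a*G or of control (adjusted p = 0.0516 to 0.0615), and the KIF13B call without any 1 miR-376a*G array, control replicate 2 or 3 or miR-376a*A replicate 2 (adjusted p = 0.0517 to 0.142). Scaling to the hybridisation controls ended both calls, at -0.66 for KIF13A and -0.13 for KIF13B (adjusted p = 0.0778 and 0.608), and dropping the low-value filter ended that of KIF13B (adjusted p = 0.0611). KIF16B, an early endosome motor, had 135, 29.7 and 32.5 on the miR-376a*A arrays, 61.8, 57.2 and 67.6 on the miR-376a*G arrays and 28.9, 135 and 131 on the control arrays. Here miR-376a*A replicate 1 and control replicate 1 lay far from the other arrays of their own groups, and the KIF16B difference in miR-376a*G from control was -0.37 ± 0.68 (SE, adjusted p = 0.707).

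Conventional kinesin showed no called difference. KIF5B, its ubiquitous heavy chain, had 1863, 1824 and 1829 on the miR-376a*A arrays, 1765, 2004 and 1593 on the miR-376a*G arrays and 1722, 1762 and 2024 on the control arrays. These ranges overlapped in all groups, and the miR-376a*G difference from control was -0.04 ± 0.10 (SE, adjusted p = 0.768). The neuronal heavy chains KIF5A and KIF5C differed by -0.24 and 0.17 (adjusted p = 0.437 and 0.414). Scaling to the hybridisation controls called KIF5B higher, at 0.36 (adjusted p = 0.00401), and KIF5C, at 0.57 (adjusted p = 0.0277). The mean over all probe sets also called KIF5C higher, at 0.85 (adjusted p = 0.00469).

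Kinesin-2, the motor of anterograde transport in cilia, has KIF3A and KIF3B as its usual pair and KIF3C as an alternative partner. KIF3A had 245, 195 and 175 on the miR-376a*A arrays, 165, 157 and 147 on the miR-376a*G arrays and 194, 203 and 207 on the control arrays. KIF3B had 762, 567 and 628 on the miR-376a*A arrays, 481, 488 and 481 on the miR-376a*G arrays and 529, 693 and 696 on the control arrays. KIF3C had 367, 328 and 247 on the miR-376a*A arrays, 254, 256 and 232 on the miR-376a*G arrays and 273, 383 and 346 on the control arrays. On KIF3A, KIF3B and KIF3C every miR-376a*G array lay below every control array. The differences from control were -0.36, -0.39 and -0.42, and none passed (adjusted p = 0.0772, 0.0644 and 0.0986). Some alternative runs called them lower. Among these were KIF3A with arrays centred on their medians (-0.59, adjusted p = 0.0399) and KIF3B with the mean over probe sets (-0.39, adjusted p = 0.045). In a limma fit of single probe sets the second KIF3B set was called lower (-0.40, adjusted p = 0.0392), and those of KIF3A and KIF3C were not called.

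Without the 2 displaced arrays, 9 of 11 cargo-transport kinesins were called lower in miR-376a*G than in control and 0 higher, the background being 25.0% lower and 31.2% higher. KIF5B and KIF5C were the ones not called. The median was then -0.56. Scaling all 9 arrays to the hybridisation controls moved the median of all tested genes to 0.51, with the cargo-transport median at 0.01 and the mitotic median at 1.87. Relative to the median of all tested genes, the cargo-transport median was -0.51 and the mitotic median 1.35 under both scalings. These relative values could not change, because the scaling moves all genes of an array alike. On the hybridisation controls KIF5B and KIF5C were called higher and KIF1B lower among the 11.

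Among the other kinesins 3 of 6 rose in miR-376a*G against control and 0 fell, beside 18.0% and 15.4% of all tested genes. KIF2A, a microtubule depolymerase of spindle poles and neurons, had 264, 190.0 and 219.8 on the miR-376a*A arrays, 344, 338 and 305 on the miR-376a*G arrays and 184, 251 and 236 on the control arrays, and rose by 0.57 ± 0.16 (SE, adjusted p = 0.0258). KIF9, a kinesin of motile cilia, had 148, 122 and 95.6 on the miR-376a*A arrays, 385, 361 and 336 on the miR-376a*G arrays and 142, 194 and 178 on the control arrays, and rose by 1.08 ± 0.18 (SE, adjusted p = 0.00203). KIF7, a regulator of Hedgehog signalling at the tip of the cilium, had 18.9, 54.5 and 36.2 on the miR-376a*A arrays, 71.6, 69.3 and 70.2 on the miR-376a*G arrays and 45.7, 19.2 and 11.3 on the control arrays, and rose by 1.65 ± 0.49 (SE, adjusted p = 0.0295). The miR-376a*G arrays lay above every control array for all 3, but the KIF7 call was lost without any 1 miR-376a*G array or control replicate 2 or 3 (adjusted p = 0.077 to 0.093), and the KIF2A call without any 1 miR-376a*G array or control replicate 1 (adjusted p = 0.0523 to 0.0881). Centring the arrays on their medians moved the KIF2A difference to 0.34 and ended its call (adjusted p = 0.310). Relative to the median of all tested genes the KIF2A difference was 0.45 with and without centring. That relative value could not change, because centring moves all genes of an array alike. KIF6, KIF19 and KIF21A differed by 0.57, -0.05 and -0.25 and were not called. Without the 2 displaced arrays 4 of the 6 were higher (KIF6 added) and KIF21A lower, beside 31.2% and 25.0% of all tested genes.

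**Figure D3:**
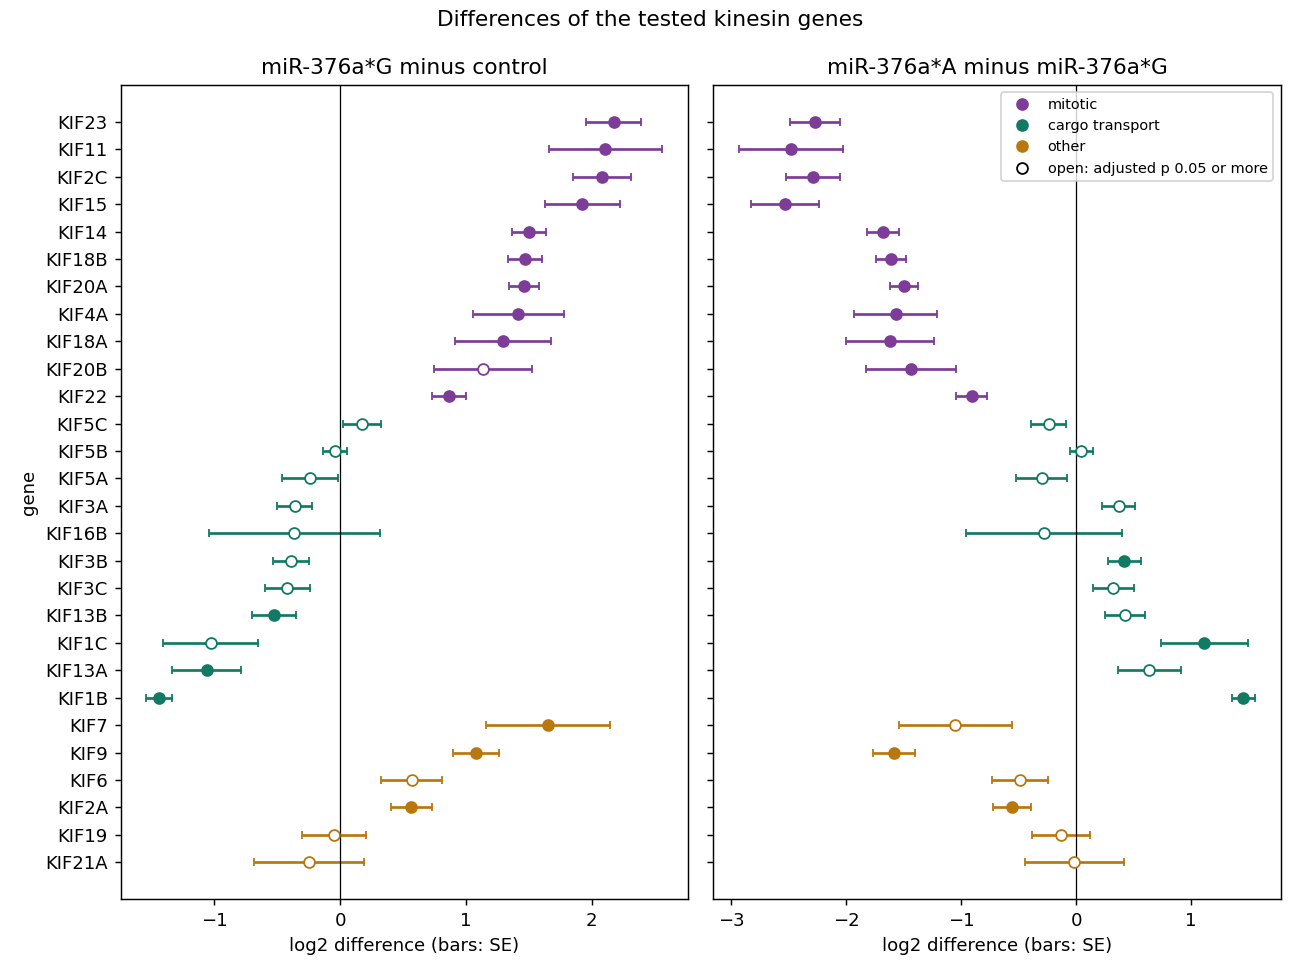
Log2 differences of the 28 tested kinesin genes for miR-376a*G minus control (left) and miR-376a*A minus miR-376a*G (right), all 9 arrays; bars are standard errors and filled points passed the adjusted p threshold of 0.05. The mitotic genes (purple) lie to the right of 0 on the left panel and to the left of 0 on the right panel, and 10 of the 11 cargo-transport genes (green) lie to the left of 0 on the left panel.

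The 2 forms of the microRNA were then set against each other, in a comparison that shares the miR-376a*G arrays with the one above. All 11 tested mitotic kinesins were lower after miR-376a*A than after miR-376a*G and 0 were higher, while 21.8% of all tested genes were lower and 16.4% higher. Each miR-376a*A array lay below each miR-376a*G array for all 11, miR-376a*A replicate 1 included. How common this was among all tested genes was not counted, so it cannot be weighed as a trait of the class. Of all 12587 tested genes, 6054 had an unadjusted p under 0.05 by limma here. The median was -1.62, against -0.14 over all tested genes. KIF15, KIF11 and KIF2C differed by -2.53, -2.48 and -2.29 (adjusted p = 0.000263, 0.00269 and 0.000134). KIF22 was again the smallest, at -0.91 ± 0.13 (SE, adjusted p = 0.000919). The KIF20B call was lost without replicate 2 or 3 of miR-376a*A or replicate 1 or 3 of miR-376a*G (adjusted p = 0.0605 to 0.0666) and with arrays centred on their medians (-1.19, adjusted p = 0.0662); the other 10 kept theirs under every alternative run.

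Of the 11 tested cargo-transport kinesins, 3 were called higher in miR-376a*A than in miR-376a*G and 0 lower, beside 16.4% and 21.8% of all tested genes. KIF1B was higher in miR-376a*A than in miR-376a*G by 1.45 ± 0.10 (SE, adjusted p = 2.13e-05), KIF1C by 1.12 ± 0.38 (SE, adjusted p = 0.0442) and KIF3B by 0.42 ± 0.14 (SE, adjusted p = 0.0451). The median was 0.37. The KIF1C call was lost without miR-376a*A replicate 2 or 3, any 1 miR-376a*G array or control replicate 2 (adjusted p = 0.0573 to 0.138). The KIF3B call was lost without miR-376a*A replicate 1 or 3, any 1 miR-376a*G array or control replicate 2 or 3 (adjusted p = 0.0546 to 0.112). The KIF1B call was kept under every alternative run. Dropping the low-value filter also ended both calls (adjusted p = 0.0585 and 0.0595). On the hybridisation controls, where the median of all tested genes was -0.81, KIF1C was at 0.45 (adjusted p = 0.308) and KIF3B at -0.25 (adjusted p = 0.170). Relative to that median KIF1C was at 1.26 and KIF3B at 0.56 under both scalings, which is fixed because the scaling moves all genes of an array alike. KIF1C turned to -0.29 when all probe sets of a gene were averaged (adjusted p = 0.301). KIF5C was then called lower in miR-376a*A, at -0.89 (adjusted p = 0.00327). In a separate limma fit of single probe sets, 1 unused set each of KIF5C and KIF16B was called lower, at -1.21 and -1.95 (adjusted p = 0.000294 and 0.0136). All 3 tested KIF1B sets were called higher there. The KIF3B call also ended with quantile normalization (adjusted p = 0.0584) and with the mean over probe sets (adjusted p = 0.0757). Among the other kinesins KIF9 and KIF2A were lower in miR-376a*A, with differences of -1.58 ± 0.18 (SE, adjusted p = 0.000249) and -0.56 ± 0.16 (SE, adjusted p = 0.0247). The KIF2A call was lost without replicate 2 or 3 of miR-376a*A or replicate 1 or 2 of miR-376a*G (adjusted p = 0.0688 to 0.0842), and with arrays centred on their medians (-0.31, adjusted p = 0.332).

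Without the 2 displaced arrays, 11 of 11 mitotic kinesins were lower in miR-376a*A than in miR-376a*G, at a median of -1.95. Of the cargo-transport kinesins 4 were higher (KIF1B, KIF1C, KIF3B and KIF13A) and 3 lower (KIF5A, KIF5C and KIF16B). The background was then 34.0% lower and 25.7% higher. KIF16B fell by 0.97 on the log2 scale (adjusted p = 0.000115). The cargo-transport calls in both directions are near the shares over all tested genes, so they mark no trait of the class.

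**Figure D4:**
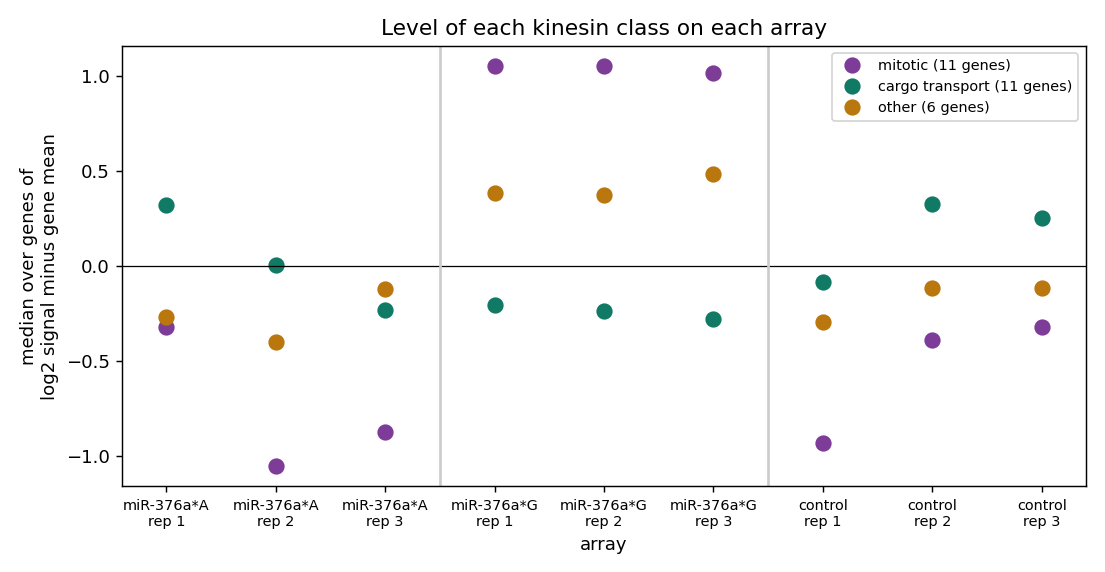
Median over the tested genes of each kinesin class of log2 signal minus the gene's own mean over 9 arrays, by array; 1 point per class and array, with groups separated by vertical lines. The mitotic class lies near 1 on the 3 miR-376a*G arrays and below 0 on the other 6, and the mitotic and cargo-transport values of miR-376a*A replicate 1 lie beside those of control replicates 2 and 3.

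The level of each class on each array shows where the 2 displaced arrays fall. The mitotic median, as log2 signal minus each gene's mean, was -0.32, -1.05 and -0.87 on the miR-376a*A arrays, 1.05, 1.05 and 1.02 on the miR-376a*G arrays and -0.93, -0.39 and -0.32 on the control arrays. The miR-376a*A replicate 1 value lay beside those of control replicates 2 and 3, and the control replicate 1 value lay between those of miR-376a*A replicates 2 and 3. The cargo-transport median was 0.32, 0.01 and -0.23 on the miR-376a*A arrays, -0.21, -0.24 and -0.28 on the miR-376a*G arrays and -0.08, 0.33 and 0.25 on the control arrays. It spread over a narrower range than the mitotic median and was lowest on a miR-376a*G array.

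The unedited form against control gave no called kinesin over all arrays. Of the 28 tested, 0 were called in either direction, as were 0% of all tested genes by limma (463 genes had an unadjusted p under 0.05, among them KIF5A and KIF9). The mitotic median was -0.18 and the cargo-transport median -0.07, against -0.02 over all tested genes. For every one of the 28 the miR-376a*A and control arrays overlapped, and the share of all tested genes that did so was not counted. Each displaced array resembled the opposite group, which makes overlap likely for any gene. The overlap therefore says little about the kinesins.

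Without miR-376a*A replicate 1 and control replicate 1, 8 of 11 mitotic kinesins were called lower in miR-376a*A than in control and 0 higher, while 22.9% of all tested genes were lower and 19.0% higher. KIF11 fell by 1.30 on the log2 scale, KIF18A by 1.08, KIF20B by 1.07 and KIF15 by 1.04 (adjusted p = 4.8e-06, 3.72e-05, 0.000312 and 0.000384). KIF4A, KIF2C, KIF23 and KIF18B fell by 0.88, 0.65, 0.45 and 0.32. KIF14, KIF20A and KIF22 differed by -0.20, -0.06 and 0.07 and were not called. CENPE and KIFC1 fell by 1.10 and 2.17 (adjusted p = 1.06e-05 and 1.63e-05). Of the 14 partners and regulators of mitotic kinesins 0 were called higher and 7 lower. Of the 5 proliferation markers 3 were called higher and 1 lower.

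In the same set of arrays 1 of the 11 cargo-transport kinesins was called higher and 4 lower, beside 19.0% and 22.9% of all tested genes. KIF1C was higher in miR-376a*A than in control, by 0.84 ± 0.14 (SE, adjusted p = 0.000646). KIF16B fell by 2.06 on the log2 scale (adjusted p = 3.06e-06), the largest of the 28, and KIF13A, KIF5A and KIF5C fell by 0.95, 0.85 and 0.30. Of the others KIF7 was higher by 1.52 ± 0.27 (SE, adjusted p = 0.00103), and KIF21A and KIF9 fell by 1.12 and 0.78. These values rest on 2 miR-376a*A and 2 control arrays chosen with their values known.

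**Figure D5:**
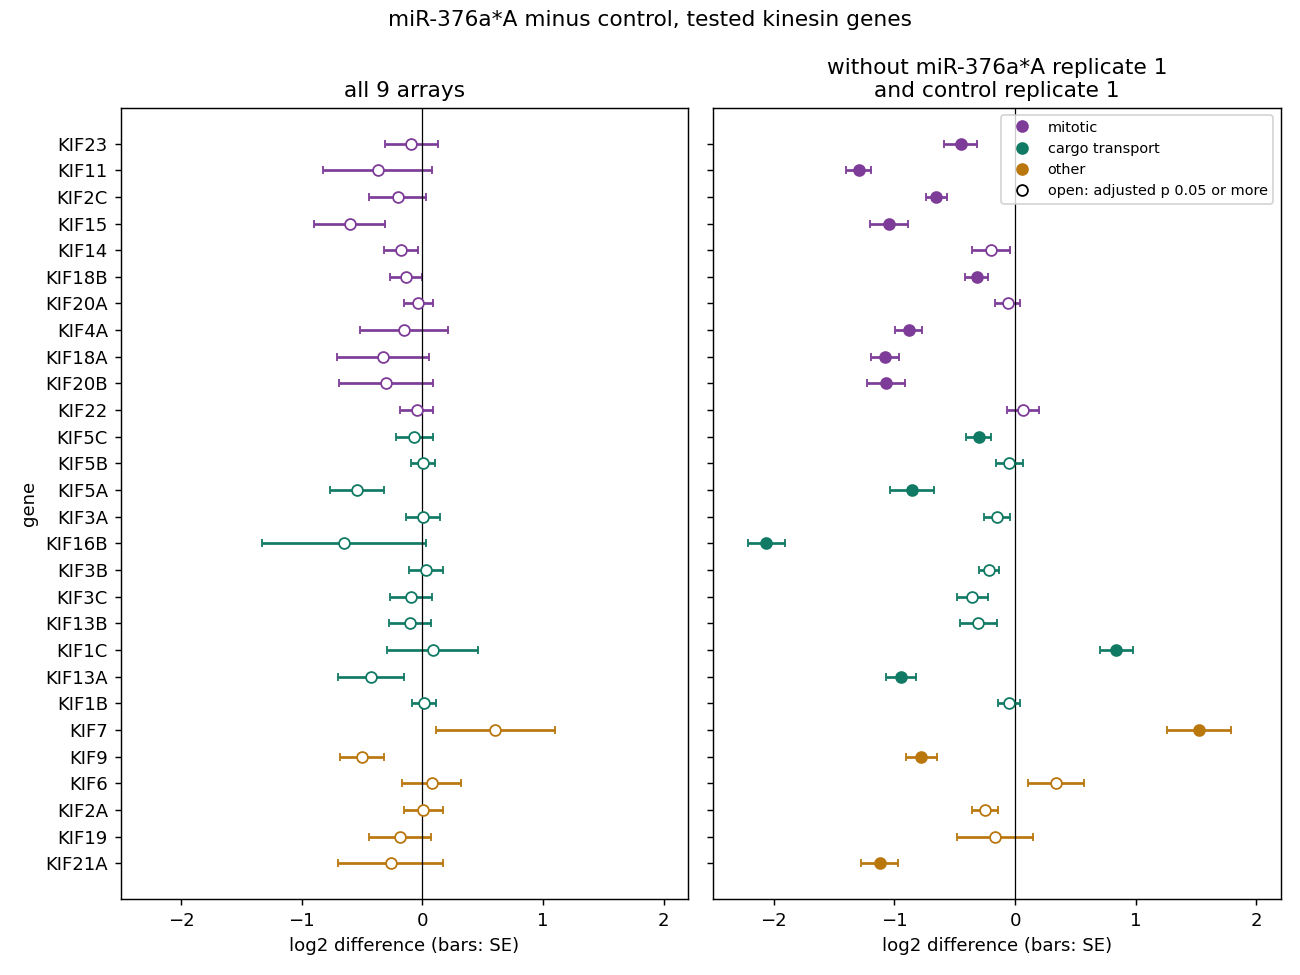
Log2 differences of the 28 tested kinesin genes for miR-376a*A minus control with all 9 arrays (left) and without miR-376a*A replicate 1 and control replicate 1 (right); bars are standard errors and filled points passed the adjusted p threshold of 0.05. No point is filled on the left, and 16 are filled on the right, 14 of them below 0.

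Light chains and adaptors link transport kinesins to cargo. Of 18 tested, 3 rose and 1 fell in miR-376a*G against control, beside 18.0% and 15.4% of all tested genes, with a median of 0.10. ZFYVE27 (protrudin), FEZ1 and KLC2, a kinesin light chain, rose by 0.89, 0.74 and 0.90 (adjusted p = 0.00105, 0.00129 and 0.00215). TRAK2, which ties kinesin to mitochondria, had 554, 751 and 822 on the miR-376a*A arrays, 382, 389.8 and 395 on the miR-376a*G arrays and 737, 539 and 532 on the control arrays, and fell in miR-376a*G by 0.61 (adjusted p = 0.0238). In miR-376a*A against miR-376a*G 2 were higher and 5 lower, beside 16.4% and 21.8% of all tested genes.

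Dynein, the motor that moves cargo the opposite way, and its activator dynactin gave 3 higher and 8 lower of 20 tested genes in miR-376a*G against control, beside 18.0% and 15.4% of all tested genes, with a median of -0.24. NDEL1 and PAFAH1B1, which regulate dynein, fell by 1.20 and 1.22 (adjusted p = 3.32e-05 and 0.00104). NDEL1 had 846, 852 and 969 on the miR-376a*A arrays, 369, 364 and 366 on the miR-376a*G arrays and 872, 790.1 and 867 on the control arrays, with every miR-376a*G array below all others. DCTN4 and DYNLRB1 fell by 0.78 and 0.73 (adjusted p = 0.00075 and 0.000298). In miR-376a*A against miR-376a*G 9 were higher and 3 lower, beside 16.4% and 21.8% of all tested genes.

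Some kinesins had several probe sets that did not move alike. The 28 tested genes were each read from the brightest probe set; single probe sets were tested in a separate limma fit over 29561 probe sets, whose adjusted p-values are given for them. For KIF1B, KIF2C, KIF14, KIF22 and KIF23 every tested probe set gave the same call in miR-376a*G against control. For KIF16B a second, dimmer set was higher in miR-376a*G by 1.53 (adjusted p = 0.0412), and for KIF5C the 2 other sets were higher by 0.88 and 1.50, where the sets used were not called. For KIF1C the second set differed by 0.69 (adjusted p = 0.0527), opposite in sign to the brighter one. For KIF9 the used set was called and the other 2 tested sets, at 0.38 and -0.11, were not; all 3 are of a kind that may bind several transcripts. With the mean over all probe sets, KIF9 and KIF13A were no longer called in miR-376a*G against control, at 0.42 and -0.23 (adjusted p = 0.0974 and 0.410), while KIF5C was, as given above. Several tested probe sets were available for 5 mitotic and 10 cargo-transport genes. In both comparisons with miR-376a*G the sets had 1 sign in all 5 mitotic genes and in 5 of 10 cargo-transport genes. In miR-376a*A against control they had 1 sign in 2 of 5 and in 4 of 10.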

How the data were processed

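RNA from 9 samples was hybridised to Affymetrix arrays after biotin-ULS labelling, per the labels' protocols. The authors deposited 1 linear intensity value per probe set and array, and the submitters' processing notes name GCOS 1.4.0.036; how probes were summarised is not given in the sources used here. Deposited intensities were already scaled to a common trimmed mean, which hides any change in total mRNA, so differences are relative to the rest of the array. The number of arrays limits the precision.

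Of 54675 probe sets, 41097 had a single gene in the platform's table, 1801 had several and 11777 were not listed. Each gene was read from its probe set with the highest mean log2(signal + 1), and 12587 of 19775 genes were tested. Folds on this scale understate the change of dim genes. limma 3.58.1 in R 4.3.3 fitted all 9 arrays with 1 coefficient per group and an intensity trend; tests are two-sided, and a gene was called at an adjusted p (Benjamini-Hochberg over all tested genes) under 0.05. "Rose", "fell", "higher" and "lower" refer to called genes or to array values as stated. The fit was tested on simulated data. Of genes changed 2-fold it recovered 58% in miR-376a*A against miR-376a*G, 54% in miR-376a*A against control and 52% in miR-376a*G against control. The simulated noise was independent between genes and lacked the shared deviations of the 2 displaced arrays. These percentages therefore do not give the power of the real comparisons. With 3 arrays in each group the smallest p of an exact permutation test is 0.1, so none is given. Every kinesin could be named, and of each other list the 4 members with the smallest p. The members and lists were chosen with earlier results of these data known. Promoter and microRNA sequences came from RefSeq tables of GRCh38.p14; windows were found for 32 of the 38 kinesins. List genes without a single-gene probe set were not analysed here. Alternatives were other pseudocounts, filters, scalings, array weights, a replicate block, left-out arrays and the mean over probe sets.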

Additional observations from a re-analysis of the deposited data

How the results depend on the processing

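For miR-376a*G against control, called kinesins numbered 16 with all arrays, 25 with array weights, 10 with the replicate block, 25 without both displaced arrays, and 10 to 20 when 1 array was left out. Mitotic calls, 10 with all arrays, were 8 with the replicate block (KIF4A and KIF18A lost, adjusted p = 0.0526 and 0.0757) and 8 to 11 when 1 array was left out. Cargo-transport calls, 3 with all arrays, were 5 with centred arrays, 9 with weights, 1 with the block, 9 without both displaced arrays and 1 to 6 with 1 array left out. In miR-376a*A against miR-376a*G, called kinesins numbered 16, and 12 to 18 with 1 array left out; mitotic calls, 11 in all, were 10 to 11. Cargo-transport calls, 3 in all, were 1 without the filter, 5 with centring, 7 with weights, 1 with the block, 7 without both displaced arrays and 1 to 4 with 1 array left out. For miR-376a*A against control, 0 kinesins were called with all arrays and 0 with any 1 left out, but 18 with weights (8 mitotic, 7 cargo-transport) and 16 without both displaced arrays (8 mitotic, 5 cargo-transport). Signs turned for KIF5B (0.36, hybridisation controls) and KIF19 (0.60, mean over probe sets) in miR-376a*G against control, and for KIF1C (-0.29, mean over probe sets), KIF3B (-0.25) and KIF5B (-0.62, both hybridisation controls) in miR-376a*A against miR-376a*G; the scaling to hybridisation controls adds nearly the same amount to every gene, and for the probe-set means the cause was not tested.

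Scaling decides the split of all calls: in miR-376a*G against control 2268 genes were higher and 1937 lower as deposited, 1068 and 2595 after centring, and 5592 and 946 on hybridisation controls, where the median of all genes was 0.51 against 0.12. The split in miR-376a*A against miR-376a*G was 2065 and 2739, 2965 and 1262, and 677 and 8205. The cargo-transport median of miR-376a*A against miR-376a*G was -0.30 on hybridisation controls and -0.02 over all probe sets, against 0.37.

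Same-numbered arrays did not deviate together. Deviations of same-numbered miR-376a*G and control arrays correlated at 0.00896, -0.0069 and -0.167. Those of miR-376a*A and control arrays correlated at -0.881, -0.606 and -0.556. Both displaced arrays carry the number 1 and deviated in opposite directions. The values of miR-376a*A and control therefore cannot show whether the numbers pair cultures. With the replicate block, 2936 of all genes were called in miR-376a*G against control, against 4205.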

Other observations

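KIF24, a kinesin that restrains cilium formation and was too dim to be tested, had signals of 3.73, 1.16 and 1.22 on the miR-376a*A arrays, 6.78, 12.6 and 6.85 on the miR-376a*G arrays and 0.522, 2.38 and 0.998 on the control arrays. Its miR-376a*G arrays lay above all others. In the fit without the low-value filter its difference from control was 2.11 (limma, adjusted p = 0.00756), and in miR-376a*A against miR-376a*G it was -1.73 (adjusted p = 0.0176). None of the other 9 kinesins under the filter was called in that fit. All 9 KIF24 signals were below the median of every array.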
